A study of Mus musculus with 8 samples.

Results

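Bone morphogenetic protein (BMP) signalling and its Id target genes were followed through 3 stages of embryonic mouse dorsal skin on 10 genes: the ligand genes Bmp2, Bmp4 and Bmp7, the receptor gene Bmpr1a, the secreted antagonist genes Nog and Grem1, and the target genes Id1, Id2, Id3 and Smad6. The members were all probesets, the sets of short oligonucleotides that each give 1 signal per array, whose annotation named exactly 1 of these symbols. There were 19 of them among 45101 probesets on the array. Bmpr1a had 6, Bmp7 and Id2 had 3 each, and each of the other 7 genes had 1. Total RNA of dorsal skin from wild-type mouse embryos was hybridised to 8 Affymetrix Mouse Genome 430 2.0 arrays. Embryonic day 14.5 (E14.5) had 2 arrays, and E16.5 and E18.5 had 3 each. No allele, transgene or treatment was named for any stage. Replicates are called by number within a stage in accession order, and nothing in the labels says that they came from separate embryos, so every p-value is set against a spread that may be technical.

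BMP ligands bind pairs of type I and type II receptor kinases, which phosphorylate Smad1, Smad5 and Smad9. These enter the nucleus with Smad4 and switch on target genes, among them the Id genes and the inhibitory Smad6, which dampens the signal again. Secreted proteins such as noggin and gremlin bind the ligands outside the cell. In developing mouse skin, BMP ligands from the dermal condensate and the epithelium restrain hair placode formation, noggin relieves that restraint, and signalling through Bmpr1a is later needed for hair shaft differentiation. Id proteins carry a helix-loop-helix but no DNA-binding region, and hold E proteins such as Tcf3, Tcf4 and Tcf12 in pairs that do not bind DNA.

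Promoter windows from RefSeq (mouse build GRCm38.p6), from 250 bases before to 50 after the annotated start, were matched by gene ID for 6 of the 10 genes. Those of Bmp4, the ligand gene that was higher at each later stage, and of 3 target genes, Id2, Id3 and Smad6, are shown to set the letters beside the signals. They are written 5′ to 3′ on the gene's strand. Capitals mark GGCGCC, the GC-rich element bound by Smad1 and Smad5, which reads the same on both strands, and CAGAC, the Smad binding element, on either strand (CAGAC or GTCTG); no match of one overlapped a match of the other.
Bmp4 (chr14:46390620-46390919, minus strand): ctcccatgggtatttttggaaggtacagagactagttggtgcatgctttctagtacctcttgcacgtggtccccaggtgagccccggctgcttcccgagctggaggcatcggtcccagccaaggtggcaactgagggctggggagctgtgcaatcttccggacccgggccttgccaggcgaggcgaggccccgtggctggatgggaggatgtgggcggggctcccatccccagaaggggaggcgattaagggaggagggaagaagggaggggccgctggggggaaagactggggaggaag
Id2 (chr12:25096043-25096342, minus strand): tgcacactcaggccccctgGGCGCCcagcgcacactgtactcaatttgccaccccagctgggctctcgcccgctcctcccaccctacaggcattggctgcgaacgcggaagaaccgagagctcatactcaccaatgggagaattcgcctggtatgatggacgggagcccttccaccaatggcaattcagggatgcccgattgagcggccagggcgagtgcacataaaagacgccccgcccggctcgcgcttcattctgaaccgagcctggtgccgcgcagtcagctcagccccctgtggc
Id3 (chr4:136143572-136143871, plus strand): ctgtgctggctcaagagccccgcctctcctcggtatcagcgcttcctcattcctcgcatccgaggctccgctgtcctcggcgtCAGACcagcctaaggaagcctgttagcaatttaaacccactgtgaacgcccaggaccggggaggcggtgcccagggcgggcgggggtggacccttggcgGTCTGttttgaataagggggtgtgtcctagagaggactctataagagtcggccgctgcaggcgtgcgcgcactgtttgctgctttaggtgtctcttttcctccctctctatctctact
Smad6 (chr9:64022010-64022309, minus strand): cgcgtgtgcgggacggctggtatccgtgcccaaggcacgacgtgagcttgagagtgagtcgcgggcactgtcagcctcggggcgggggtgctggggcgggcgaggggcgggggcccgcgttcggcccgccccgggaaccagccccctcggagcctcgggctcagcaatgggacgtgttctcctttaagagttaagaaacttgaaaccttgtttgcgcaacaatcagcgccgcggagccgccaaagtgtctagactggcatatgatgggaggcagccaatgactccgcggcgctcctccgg
The Id2 window held 1 GGCGCC and 0 CAGAC, and the Id3 window held 0 GGCGCC and 2 CAGAC. The windows of Bmp4 and Smad6 held neither. GGCGCC was found in 3 of the 6 windows of these genes (Bmpr1a, Grem1 and Id2) and in 11.9% of all 32851 windows, and CAGAC in 2 of the 6 (Grem1 and Id3) and in 49.6% of all windows. The 6 windows were 60% to 79.3% G and C, against a median of 52.7% over all windows. These matches describe the letters of a short window and say nothing of binding elsewhere.

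Each of the 6 keratinocyte genes and 6 dermal fibroblast genes looked at was above background on at least 1 array of every stage. So was each of 7 endothelial and 6 skeletal muscle genes. From 12186 to 13820 of 18193 genes were above background on each array, so this cannot tell the tissue apart from others. Background was taken on each array as the 95th percentile of 80 probesets for olfactory or vomeronasal receptors. It ranged over signals of 43.9 to 45.7 for E14.5, 33.6 to 53.2 for E16.5, and 62.2 to 92.2 for E18.5. The E14.5 arrays stood apart from the others. The 3′ over 5′ ratio of the beta-actin control was 6.49 to 6.91 there, against 1.11 to 1.14 on the E16.5 arrays and 1.35 to 1.37 on those of E18.5. Between E14.5 and E16.5, 2540 of the 5068 genes with 2 or more called probesets (50.1%) held calls of both signs, against 83 of 498 (16.7%) between E16.5 and E18.5. In any comparison with E14.5, stage cannot be told apart from whatever else set these arrays apart, so E18.5 is set against E16.5 first.

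Between E16.5 and E18.5, the ligand gene Bmp4, the target gene Id1 and the brightest of the 3 Id2 probesets rose, and the inhibitory Smad6 fell. Bmp4 was 2.19-fold higher at E18.5, the brightest Id2 probeset 2.03-fold higher and Id1 1.46-fold higher, while Smad6 was 1.70-fold lower. No probeset of Bmp2, Bmp7, Bmpr1a, Nog, Grem1 or Id3 passed the test, and 1 of them, a Bmpr1a probeset, had an unadjusted p under 0.05. In all, 3 of 19 probesets rose, 1 fell and 15 were not called (21.1% called), where 10.7% of all 34945 probesets tested were called, 6.27% as rises and 4.44% as falls. By the brightest probeset of each gene, 3 of 10 genes rose and 1 fell, where 11.9% of 18193 genes were called. The median log2 difference was 0.19 over the 19 probesets and 0.12 over all probesets. Tests were made with limma on log2(signal + 16) over all probesets with 1 gene symbol, and a call is a Benjamini-Hochberg adjusted p under 0.05; folds and log2 differences are on that scale, which understates the change of dim genes.

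**Figure D1:**
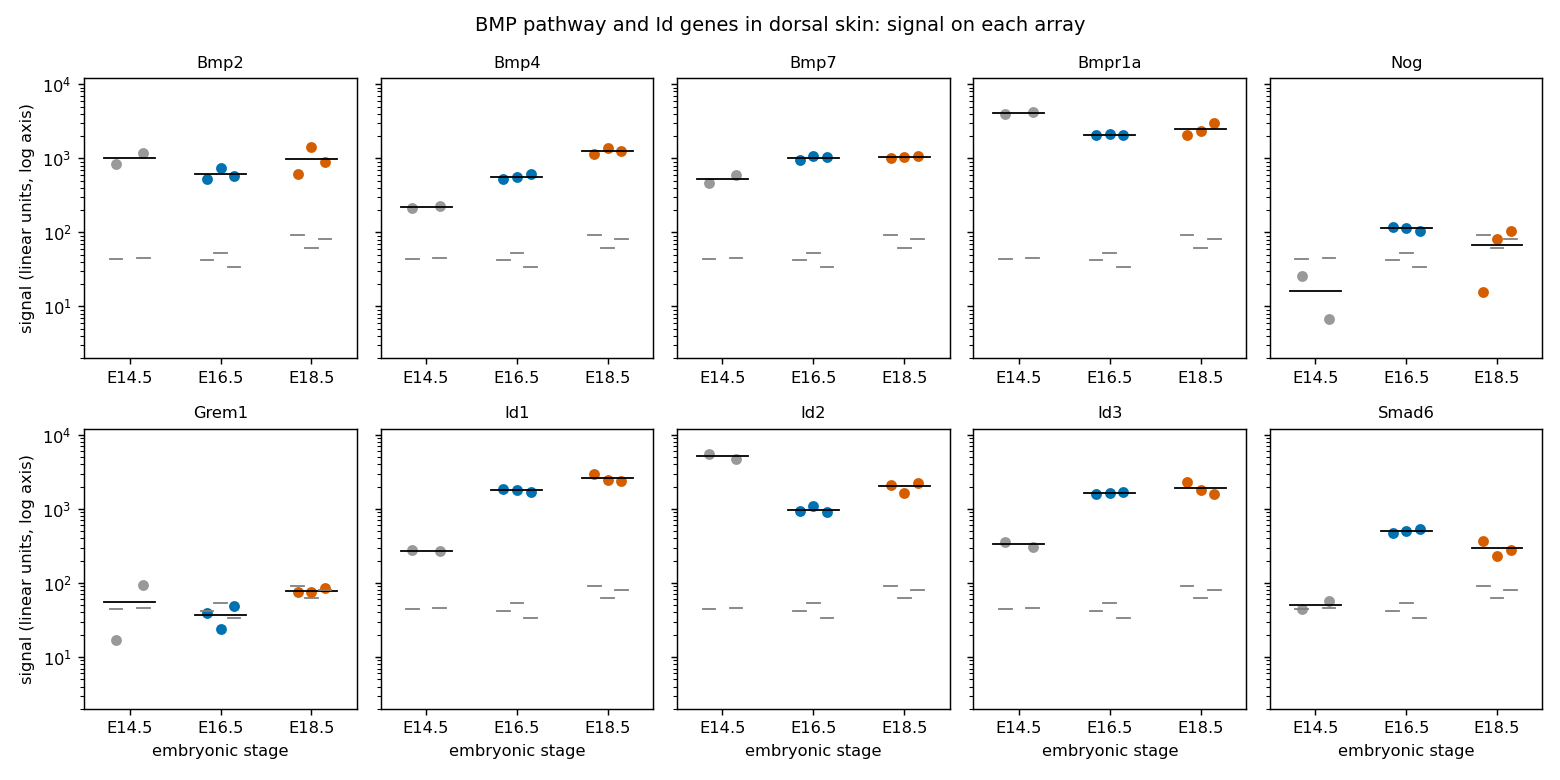
Signal of each of the 10 genes on each array (log axis, linear signal units), by the probeset with the highest mean. Points are arrays, black bars the stage mean, and short grey bars the background of each array. Bmp4 stepped up at each stage, Smad6 was highest at E16.5, and Nog and Grem1 lay near background.

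Among the ligands, Bmp4, which the dermal condensate and papilla of the hair follicle produce, gave signals of 213 and 224 at E14.5, 518, 562 and 609 at E16.5, and 1141, 1385 and 1239.98 at E18.5. No stage overlapped another. The E18.5 arrays differed from the E16.5 arrays by log2 1.13 ± 0.14 (SE, n = 3 each, limma adjusted p = 0.00142), which is higher than 96% of all probesets. The E16.5 arrays differed from the E14.5 arrays by 1.30 ± 0.16 (n = 3 and 2, adjusted p = 3.92e-05). Centring every array on its median left that step at 0.35 (adjusted p = 0.101), a loss of the call, while the later step was called in every setting tried.

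Marker sums of the hair follicle were also higher at E18.5 than at E16.5, but did not step up at each stage. The summed signal of 7 dermal condensate and papilla genes was 3528 to 4238 on the E14.5 arrays, 4003 to 4692 on those of E16.5 and 5142 to 6762 on those of E18.5, so that the earlier stages overlapped. That overlap hides opposite changes. Between E14.5 and E16.5, 1 of the 7 rose, Sox18, from a mean of 71.2 to 2678, most of the E16.5 sum. In the same interval 2 fell, Prom1 from 2143 to 514 and Lepr from 999 to 486. Of all genes, 37.1% rose and 20.8% fell in that interval. The rise of Sox18 cannot be assigned to the papilla in RNA of a whole tissue. Of the 7 endothelial genes looked at, 6 rose in that interval and 1 fell. Between E16.5 and E18.5, 2 of the 7 papilla genes rose, Corin and Lepr, and 0 fell, where 6.69% of all genes rose and 5.21% fell. Alx4 was at or below background on both E14.5 arrays. The sum of 6 hair matrix genes was 6285 to 7569 on the E14.5 arrays, 3388 to 4208 on those of E16.5 and 5619 to 10019.6 on those of E18.5, with E16.5 the lowest stage and the others overlapping. Most of the E14.5 sum was Lef1, so the sum does not give the order of stages of the other genes. Between E14.5 and E16.5, 2 of the 6 fell, Lef1 from a mean of 5143 to 1527 and Hoxc13 from 199 to 97.2. In the same interval 2 rose, Shh from 605 to 1134 and Foxn1 from 27.8 to 302, where 37.1% of all genes rose and 20.8% fell. Between E16.5 and E18.5, 3 of the 6 rose and 0 fell, and Krt35 was at or below background on all E14.5 and E16.5 arrays. Their part in the Bmp4 differences was not tested. In RNA of a whole tissue, fewer cells of a type and less RNA per cell cannot be told apart, and this holds for every gene here.

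Bmp2, a ligand made in the epithelium of the hair placode and matrix, gave 840.3 and 1171 at E14.5, 526, 734 and 573 at E16.5, and 611, 1413 and 886 at E18.5. Every E16.5 array lay below both E14.5 arrays, and the E18.5 arrays overlapped both, with replicate 2 the highest. The E18.5 against E16.5 difference of 0.58 ± 0.27 was not called (adjusted p = 0.196), nor was the E16.5 against E14.5 difference of −0.70 ± 0.31 (adjusted p = 0.073). The E16.5 against E14.5 difference was called with quantile normalization (adjusted p = 0.0261), with median centring (−1.65, adjusted p = 0.000588), with only the arrays of those stages (adjusted p = 0.0166) and without E18.5 replicate 1 or 2 (adjusted p = 0.0318 and 0.0256).

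Bmp7 belongs to a ligand subgroup with Bmp5 and Bmp6, and the E18.5 and E16.5 signals of its 3 probesets overlapped. The brightest gave 464 and 594 at E14.5, 963, 1062 and 1040.05 at E16.5, and 1004, 1044 and 1076 at E18.5. The E18.5 against E16.5 differences were 0.03 ± 0.14, −0.02 ± 0.14 and 0.23 ± 0.19 (adjusted p = 0.917, 0.932 and 0.461). Probeset 1418910_at gave 105 and 104 on the E14.5 arrays, 889 to 919 on those of E16.5 and 827 to 948 on those of E18.5. All 3 rose between E14.5 and E16.5, where 38.9% of all probesets rose, but by very unequal amounts. Probeset 1435479_at rose by 0.94 ± 0.15 (adjusted p = 0.000296), 1418910_at by 2.94 ± 0.15 (adjusted p = 9.88e-08), and 1432410_a_at by 4.77 ± 0.21 (adjusted p = 4.08e-08), which was at least 11.3-fold since its E14.5 signals of 8.09 and 10.4 were below background. Under median centring the brightest probeset gave −0.015 for the same step (adjusted p = 0.944).

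The receptor gene Bmpr1a encodes a type I BMP receptor. Its brightest probeset, 1425492_at, gave 3923 and 4177 at E14.5, 2073, 2158 and 2046 at E16.5, and 2043, 2342 and 3009 at E18.5. Both E14.5 arrays were above every later array, and the E18.5 and E16.5 arrays overlapped. None of the 6 probesets was called between E16.5 and E18.5, with log2 differences from −0.63 to 0.25. Probeset 1425494_s_at came nearest, at 987, 1217 and 865 at E18.5 against 1555, 1296 and 1220.1 at E16.5, without overlap (log2 −0.41 ± 0.15, adjusted p = 0.114). Between E14.5 and E16.5, 4 of the 6 fell and 0 rose, where 18.7% of all probesets fell and 38.9% rose. The 4 that fell were annotated to the same source sequence, so they are not separate evidence. These falls were 0.95 ± 0.16 for 1425492_at, 0.68 ± 0.17 for 1425494_s_at, 2.02 ± 0.22 for 1425493_at and 0.52 ± 0.19 for 1425491_at on the log2 scale (adjusted p = 0.000357, 0.00537, 1.36e-05 and 0.0327). The call of 1425491_at was lost without E14.5 replicate 2 (log2 −0.32, adjusted p = 0.251), on leaving out E16.5 replicate 1 (adjusted p = 0.104) or 2 (adjusted p = 0.0699), and without a variance trend (adjusted p = 0.0685). Of the other probesets, 1451729_at was annotated to the same source sequence as the 4 that fell. It gave 118.5 and 163 on the E14.5 arrays, 79.7 to 133 on those of E16.5 and 100.4 to 193 on those of E18.5. Its E16.5 against E14.5 difference was not called (log2 −0.29, adjusted p = 0.498), except under quantile normalization (adjusted p = 0.0179) and median centring (adjusted p = 0.00878). Probeset 1445413_at was at or below background on all 8 arrays.

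**Figure D2:**
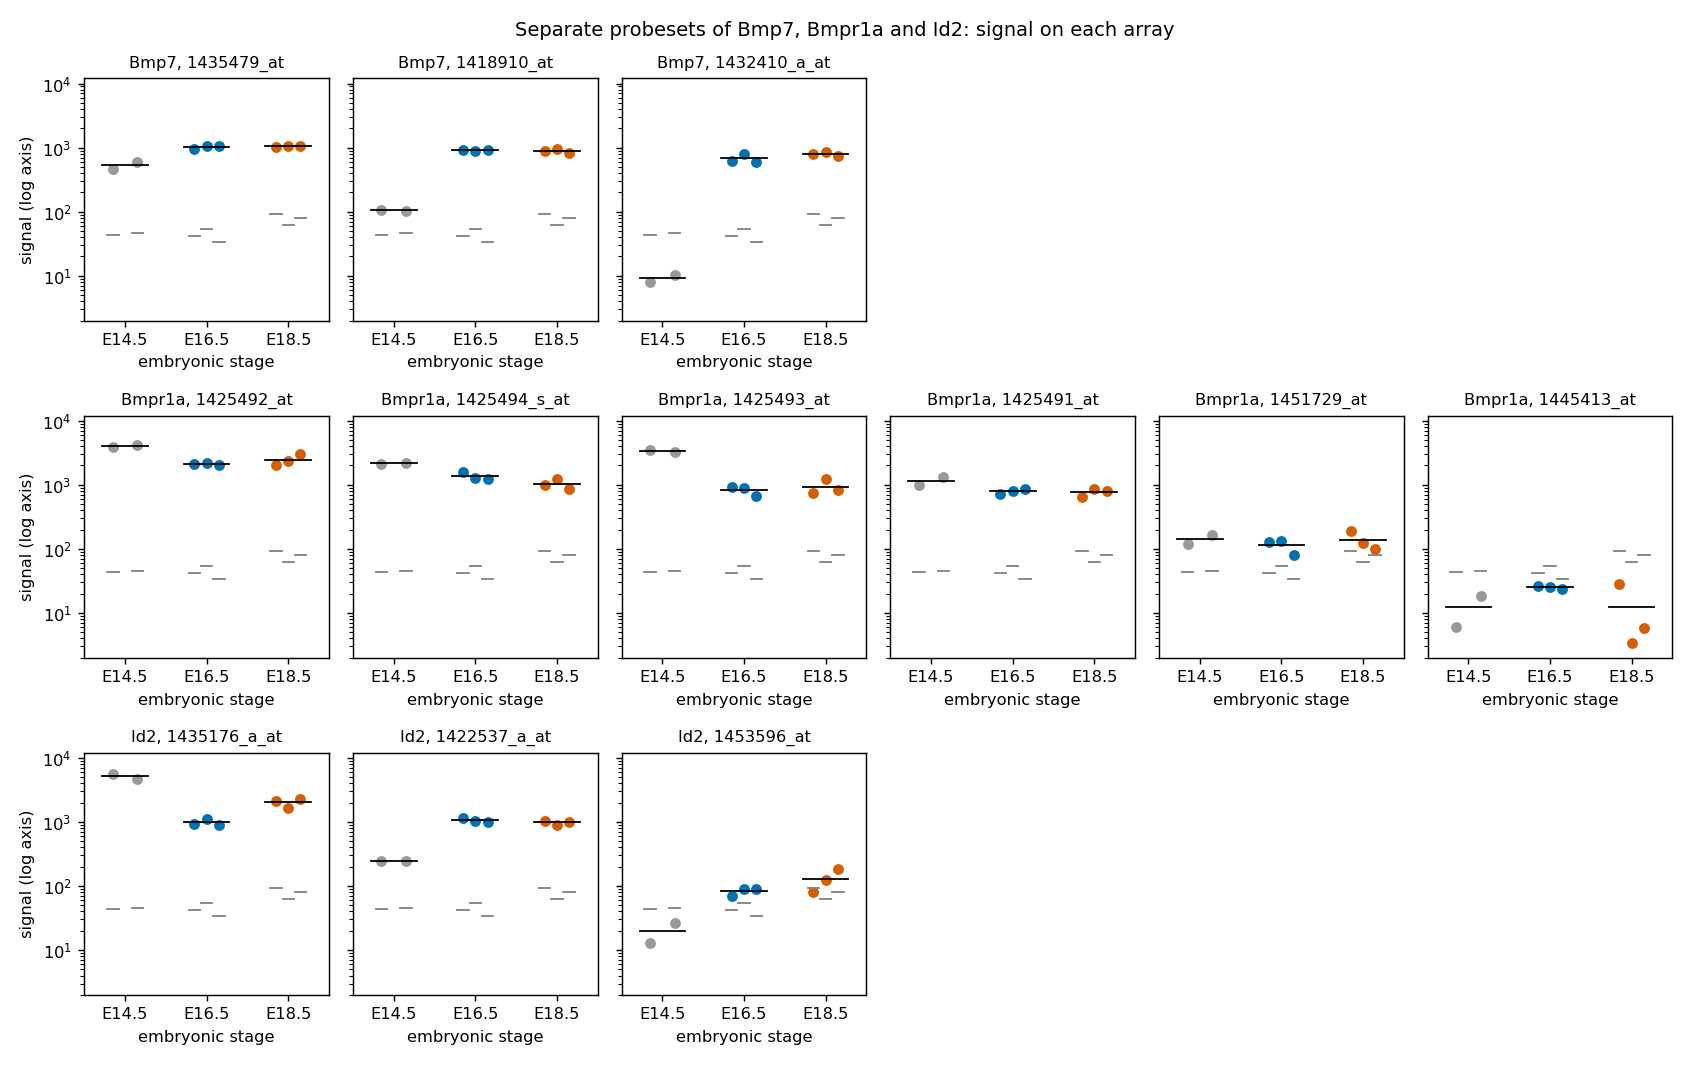
Signal of every probeset of Bmp7 (top), Bmpr1a (middle) and Id2 (bottom) on each array (log axis, linear signal units). Points are arrays, black bars stage means, short grey bars the background of each array. The Id2 probesets went opposite ways between E14.5 and E16.5, and only 1435176_a_at was called between E16.5 and E18.5.

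Both antagonist genes were close to background. Nog encodes noggin, which binds BMP ligands and is needed for hair follicle induction in mouse embryos. It gave 25.7 and 6.86 at E14.5, both below background, 118, 116 and 106 at E16.5, all above it, and 15.5, 82.3 and 103 at E18.5, where replicate 1 was below it. Nog rose between E14.5 and E16.5, by at least 2.12-fold (log2 2.06 ± 0.53 of the measured signals, n = 3 and 2, adjusted p = 0.00634). That call was lost without E14.5 replicate 2 (adjusted p = 0.0668) and under median centring (adjusted p = 0.0763). Every E18.5 array was below every E16.5 array, but the difference was not called (−0.85 ± 0.48, adjusted p = 0.279), and without E18.5 replicate 1 it was −0.26.

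Grem1, which encodes gremlin, gave 17.0 and 94.6 at E14.5, 39.1, 24.3 and 49.0 at E16.5, and 74.8, 76.2 and 85.5 at E18.5. Of its 8 signals, 4 were at or below background. All E18.5 arrays lay above all E16.5 arrays without a call (0.85 ± 0.42, adjusted p = 0.221), while background was also higher at E18.5. The E16.5 against E14.5 difference was −0.21 ± 0.47 (adjusted p = 0.742) and turned with the E14.5 array kept. It was −1.08 without E14.5 replicate 1 (adjusted p = 0.0428) and 0.67 without replicate 2 (adjusted p = 0.187).

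Among the targets, Id1 gave 275 and 270.1 at E14.5, 1872, 1782 and 1686 at E16.5, and 2987, 2445 and 2414 at E18.5. The stages did not overlap. Id1 rose by 0.55 ± 0.13 between E16.5 and E18.5 (n = 3 each, adjusted p = 0.0227) and by 2.64 ± 0.14 between E14.5 and E16.5 (adjusted p = 1.13e-07), a 6.21-fold difference. The later call was lost when any single E16.5 array was left out (adjusted p = 0.0669 for replicate 1, 0.0882 for replicate 2 and 0.114 for replicate 3), under median centring (log2 0.43, adjusted p = 0.0751) and without a variance trend (adjusted p = 0.0753).

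Id3 gave 362 and 308 at E14.5, 1574, 1655 and 1682 at E16.5, and 2308, 1779 and 1599 at E18.5. The E18.5 arrays overlapped the E16.5 arrays, and the difference of 0.19 ± 0.15 was not called (adjusted p = 0.448). It rose 4.72-fold between E14.5 and E16.5 (log2 2.24 ± 0.17, adjusted p = 1.07e-06). Whether Id1 and Id3 differed from each other in the later interval was not tested.

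The Id2 probesets disagreed. Probeset 1435176_a_at gave 5609 and 4661 at E14.5, 940.3, 1110 and 896 at E16.5, and 2132, 1668 and 2260.02 at E18.5, so that E16.5 was the lowest stage, without overlap. It rose by 1.02 ± 0.15 between E16.5 and E18.5 (adjusted p = 0.00293) and fell by 2.37 ± 0.17 between E14.5 and E16.5 (adjusted p = 6.32e-07). Probeset 1422537_a_at gave 247 and 243 at E14.5, 1133, 1029.5 and 987 at E16.5, and 1028, 900.4 and 1009.9 at E18.5. It rose by 2.03 ± 0.15 in the earlier interval (adjusted p = 8.14e-07) and was not called in the later one (−0.10 ± 0.13, adjusted p = 0.669). The dim 1453596_at, below background at E14.5, rose at least 1.63-fold in the earlier interval (log2 1.50 ± 0.37 of the measured signals, adjusted p = 0.00508), a call lost under median centring (0.54, adjusted p = 0.217). With the mean of the 3 probesets, Id2 gave 0.47 between E16.5 and E18.5 (adjusted p = 0.0642) and 0.39 between E14.5 and E16.5 (adjusted p = 0.0626), neither called, so no direction is given for the gene.

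Smad6, an inhibitory Smad that is itself a BMP target and is strongly expressed in endothelium, gave 44.9 and 56.5 at E14.5, 473, 501 and 545 at E16.5, and 375, 231 and 282 at E18.5. E16.5 was the highest stage and no stages overlapped. It fell by 0.77 ± 0.22 on the log2 scale between E16.5 and E18.5 (n = 3 each, adjusted p = 0.04997), just inside the threshold, and rose by 2.97 ± 0.24 between E14.5 and E16.5, or 7.85-fold (adjusted p = 1.88e-06). Its E14.5 signals lay just above background (43.9 and 45.7). The fall lost its call on leaving out any single E16.5 array (adjusted p = 0.128 for replicate 1, 0.15 for replicate 2 and 0.198 for replicate 3), E18.5 replicate 2 (adjusted p = 0.11) or 3 (adjusted p = 0.0836), with a pseudocount of 1 (adjusted p = 0.0654), quantile normalization (adjusted p = 0.0582) or no variance trend (adjusted p = 0.062).

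The endothelial sum was also highest at E16.5. The summed signal of 7 endothelial genes was 2334 to 2489 on the E14.5 arrays, 5916 to 6869 on those of E16.5 and 5106 to 5181 on those of E18.5, and none of the 7 was at or below background throughout a stage. Between E16.5 and E18.5, 1 of the 7 fell, the endothelial cadherin gene Cdh5 (log2 −1.33, adjusted p = 0.00554), and 0 rose. Of all genes, 5.21% fell and 6.69% rose in that interval. Between E14.5 and E16.5, 6 of 7 rose and Tek fell, where 37.1% of all genes rose and 20.8% fell. Their part in the Smad6 differences was not tested.

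Against E14.5 and on the deposited scale, the E16.5 arrays had higher Bmp4, Bmp7, Nog, Id1, Id3 and Smad6 and lower Bmpr1a; under median centring Bmp4, Nog and Id2 1453596_at lost their calls and the brightest Bmp7 probeset turned. Of the 19 probesets, 10 rose, 5 fell and 4 were not called (78.9% called), where 57.6% of all probesets were called, 38.9% as rises and 18.7% as falls. The median log2 difference was 0.94 over the 19 probesets and 0.38 over all. Median centring moved the median of all probesets to −0.57 and the share of rises among all calls to 33.1% in place of 67.5%, and left 6 rises and 7 falls among the 19; quantile normalization moved the median to −0.025 and the share to 51.4%, with 10 rises and 7 falls. Markers of other cell types moved in the same interval, in which 37.1% of all genes rose and 20.8% fell. The summed signal of 6 skeletal muscle genes was 52828 to 58691 on the E16.5 arrays and 5249 to 10267.9 on those of E14.5, with 5 of 6 called as rises and 0 as falls. That of 4 adipocyte genes was 5163 to 5899 on the E16.5 arrays and 1406 to 1481 on those of E14.5. Most of both sums was Fabp4, the 1 of 4 called as a rise, with means of 4995 at E16.5 and 1163 at E14.5. Cidec was at or below background on every array of both stages and Adipoq on both E14.5 arrays. The summed signal of 6 keratinocyte genes was 89733 to 100029 on the E16.5 arrays and 39916 to 55381 on those of E14.5, with 5 rises and 1 fall. That of 6 dermal fibroblast genes was 94492 to 101420.0 on the E16.5 arrays and 65569 to 67864 on those of E14.5, with 4 rises and 2 falls. Their part in the differences of the BMP genes was not tested. Set among all probesets, Smad6 lay above 94.3% of them, Id1 above 91.6%, Id3 above 87.8% and Bmp4 above 72.9%. By the brightest probeset of each other gene, Nog lay above 85.5%, Bmp7 above 64.7%, Grem1 above 32.3%, Bmp2 above 20.3%, Bmpr1a above 16% and Id2 above 4.05%.

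**Figure D3:**
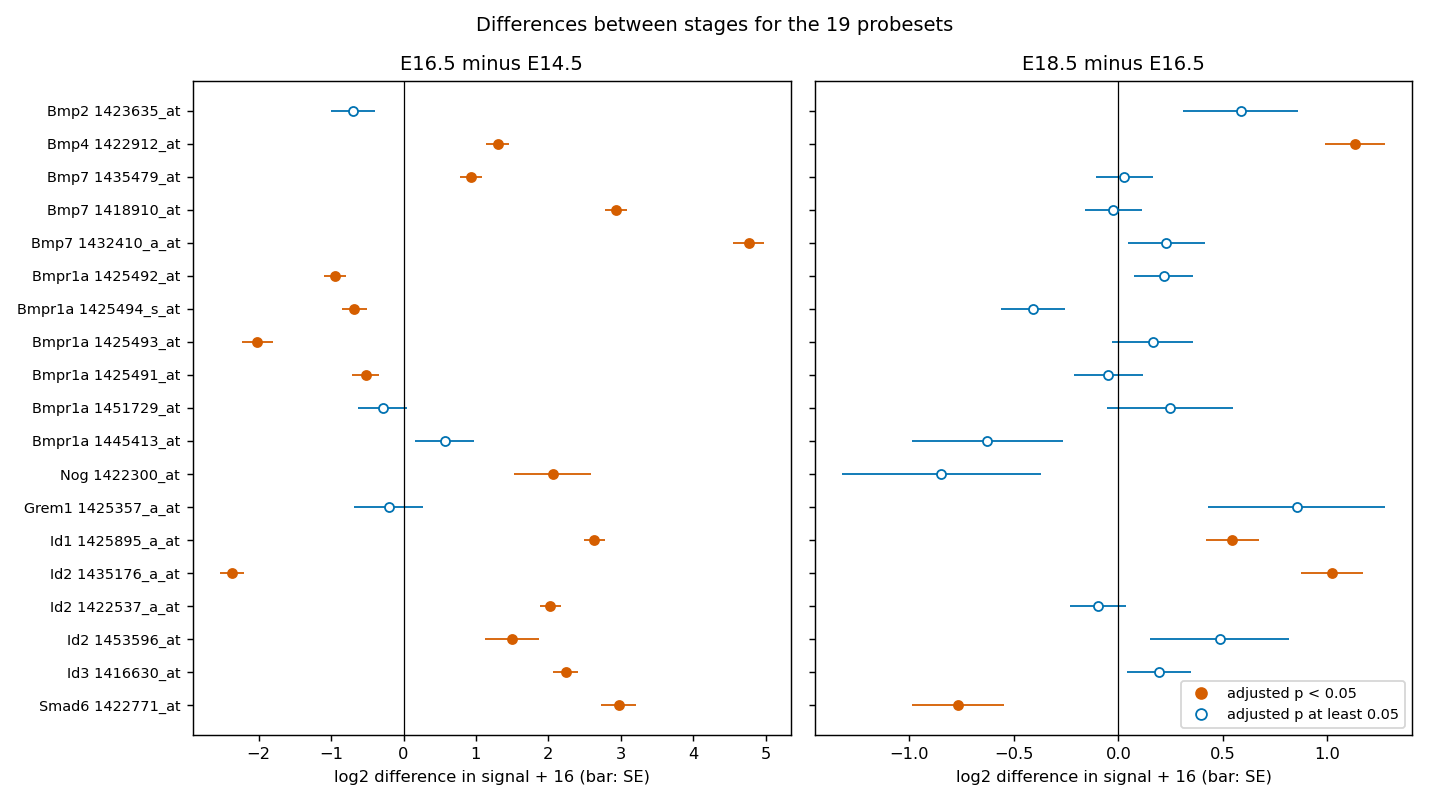
Log2 difference in signal + 16 for each of the 19 probesets, E16.5 minus E14.5 (left) and E18.5 minus E16.5 (right, with a narrower axis). Bars are SE, filled orange points are called (adjusted p under 0.05) and open blue points are not; 15 points are filled on the left and 4 on the right.

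Over the whole span, E18.5 against E14.5, 9 of the 19 probesets rose and 5 fell (73.7% called), where 59.8% of all probesets were called, 42.9% as rises and 16.9% as falls. Id1 differed by 3.18 ± 0.14 (9.07-fold), Bmp4 by 2.44 ± 0.16 (5.41-fold), Id3 by 2.43 ± 0.17 (5.39-fold) and Smad6 by 2.21 ± 0.24 (4.61-fold), each with n = 3 and 2 (adjusted p = 5.16e-08, 4.68e-07, 6.95e-07 and 1.82e-05). This comparison shares its arrays with the others and is no separate evidence.

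On the deposited scale, the order of stages was E14.5, E16.5, E18.5 from low to high for Bmp4 and Id1, with every step called. Median centring took the call from the first Bmp4 step and the second Id1 step, and the latter also lost it without any single E16.5 array. For Id3 and the 3 Bmp7 probesets E14.5 was lowest and the later stages did not differ beyond their spread. Under median centring Bmp7 1435479_at no longer rose from E14.5 to E16.5 (−0.015). For Smad6 the order was E14.5, E18.5, E16.5, with the later fall just inside the threshold. For Bmpr1a 1425492_at E14.5 was highest and the later stages did not differ beyond their spread. For Bmp2, Nog and Grem1 no order held across all 3 stages.

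The change between E16.5 and E18.5 was tested against the change between E14.5 and E16.5 as a single contrast, and 11 of the 19 probesets passed (57.9%), 3 with a higher and 8 with a lower second change, where 44.9% of all probesets passed, 15.8% higher and 29.1% lower. Bmp4 was not among them, with a difference of −0.17 ± 0.26 (adjusted p = 0.633), but it was 0.87 under quantile normalization (adjusted p = 0.0255) and 0.67 under median centring (adjusted p = 0.0709), so the 2 steps of Bmp4 cannot be called equal. Smad6, with a second minus first change of −3.74 ± 0.39 (adjusted p = 2.87e-05), had the largest negative value among the genes with all E14.5 signals above background.

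The genes whose centred profile over the 8 arrays lay nearest to each member were taken among 18193 genes, by the root-mean-square log2 difference between profiles. For Id1 these were Suox (0.064) and Pcdh19 (0.093), against 1.28 for the departure of Id1 from its own mean. For Id3 they were Emg1 (0.070) and Wdr81 (0.071), against 1.03. For Smad6 they were Ckb (0.074) and Ovol1 (0.13), against 1.18, for Bmp4 Tex19.2 (0.17) and Zbtb44 (0.17), against 0.95, and for the brightest Id2 probeset Oaz3 (0.11) and Maf (0.12), against 0.93. Some of these neighbours had mean signals below background, Tex19.2 at E14.5 (4.06) and E16.5 (31.5), Suox at E14.5 (27.5), and Oaz3 at E16.5 (13.6) and E18.5 (45.0). Every profile includes the E14.5 arrays.

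Other genes of the pathway were taken from 6 lists of 59 genes, of which 54 had a probeset, each read by its brightest probeset. Between E16.5 and E18.5, 7 of the 54 rose and 1 fell (14.8% called, against 11.9% of all genes, 6.69% as rises and 5.21% as falls), with a median of 0.05 against 0.12 over all genes. Of the 13 secreted modulators, 4 rose and 0 fell. Chrdl1, a chordin-like antagonist, had means of 263 at E18.5 and 56.6 at E16.5, at least 3.70-fold higher (log2 1.96 ± 0.24, adjusted p = 0.00132), and 3 of its 4 probesets rose. Fstl1, a follistatin-like secreted protein, had 19714 at E18.5 and 9044 at E16.5 (log2 1.12 ± 0.10, adjusted p = 0.000343), with both probesets called. Fst, which encodes follistatin, had 2279 at E18.5 and 1149.9 at E16.5 (0.97 ± 0.16, adjusted p = 0.00454), on 1 of 2 probesets. The other member that rose, Sostdc1, named after its values were seen, is a BMP and Wnt antagonist of the hair placode, with 2606 at E18.5 and 1847 at E16.5 (adjusted p = 0.0376).

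Of the 9 other targets, 2 rose and 0 fell between E16.5 and E18.5. Msx2, a homeobox gene of the hair matrix, had means of 562 at E18.5 and 128 at E16.5 (log2 1.91 ± 0.35, adjusted p = 0.00776), on 1 of 2 probesets. Dlx2, a distal-less homeobox gene, had 208 at E18.5 and 25.8 at E16.5, at least 3.67-fold higher (2.41 ± 0.35, adjusted p = 0.00281). Foxn1 and Dlx3 stand on both this list and the hair matrix list. Of the 11 Smads and regulators 1 rose, Tob1, which restrains Smad signalling, with 3875 at E18.5 and 2289 at E16.5 (0.74 ± 0.20, adjusted p = 0.0439), on 1 of 2 probesets, and Smad1, Smad4, Smad5, Smad7 and Smad9 were not called. None of the 10 other receptors and co-receptors and none of the 8 other ligands was called by limma, and 1 in each list had an unadjusted p under 0.05.

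Among the E proteins that Id proteins bind, Tcf3 fell, with means of 1236 at E18.5 and 2077 at E16.5 (log2 −0.75 ± 0.16, adjusted p = 0.0158), on 1 of 3 probesets. Tcf4 (−0.34) and Tcf12 (0.36) were not called.

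**Figure D4:**
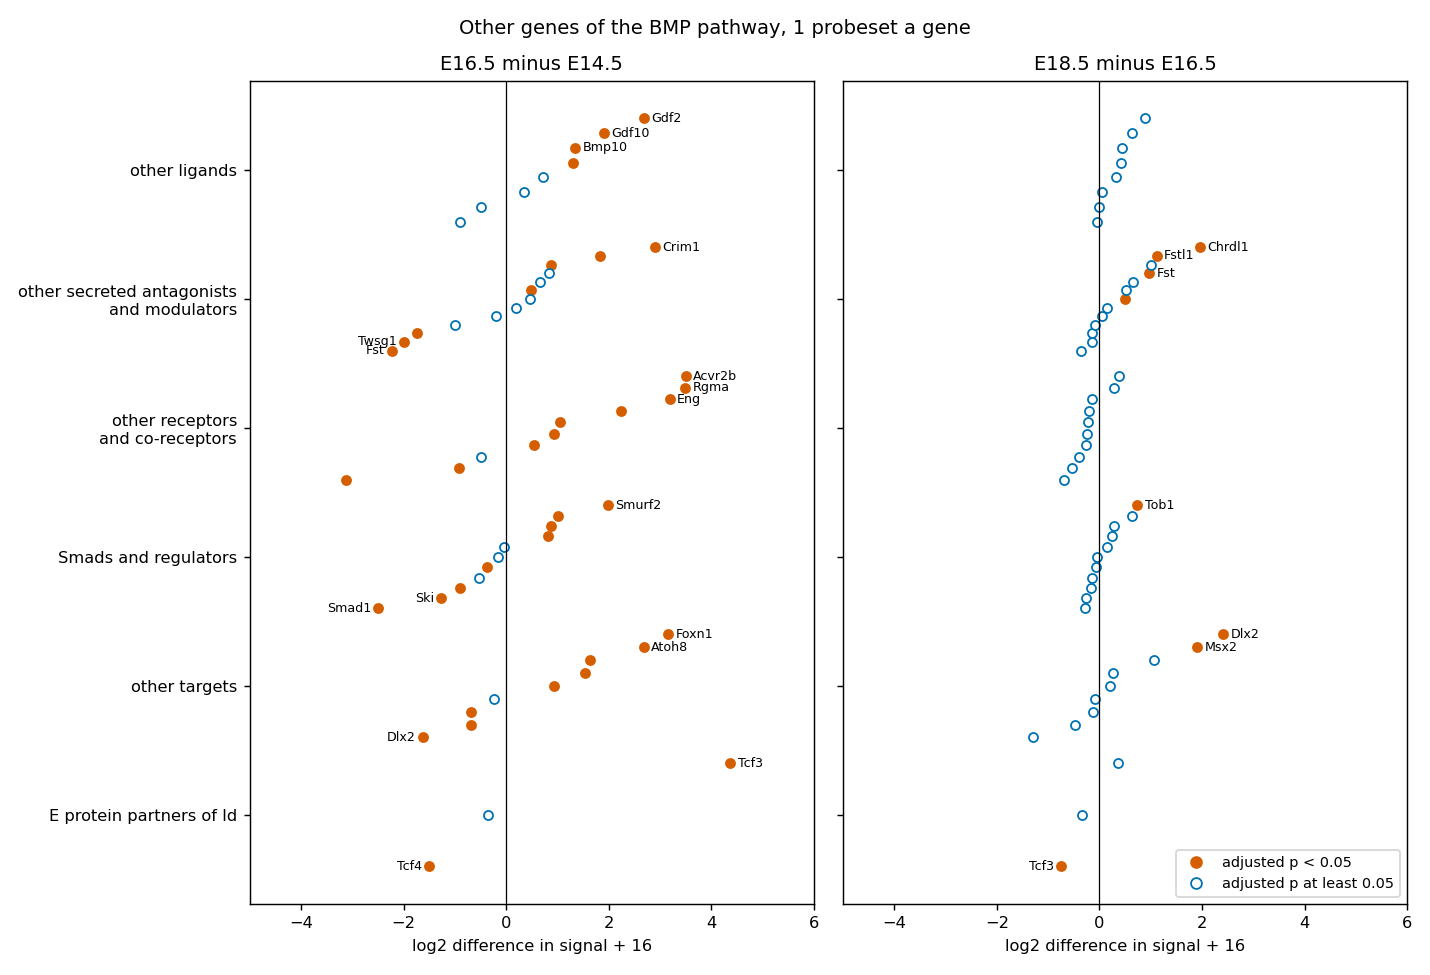
Log2 difference in signal + 16 for the other pathway genes by list, E16.5 minus E14.5 (left) and E18.5 minus E16.5 (right), 1 probeset a gene. Filled orange points are called (adjusted p under 0.05), open blue points are not, and up to 3 called genes with the largest differences are named in each list; 8 points are filled on the right.

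Between E14.5 and E16.5, 25 of the 54 rose and 13 fell (70.4% called, against 57.9% of all genes, 37.1% as rises and 20.8% as falls), with a median of 0.51 against 0.29. With the mean of all probesets of each gene, 28 rose and 4 fell. The share of all genes called that way was not counted, so these counts cannot be set against it. Of the 24 pathway genes with 2 or more called probesets, 13 (54.2%) held calls of both signs, against 50.1% of all such genes. Among the 13 were Fst, Twsg1, Crim1, Smad1, Ski and Tcf4. Of the 10 receptors and co-receptors 7 rose and 2 fell. Acvr2b, a type II receptor, was at least 6.35-fold higher at E16.5 (log2 3.50 ± 0.39, adjusted p = 1.9e-05). Rgma, a BMP co-receptor, was 11.2-fold higher (3.49 ± 0.20), and Eng, the endoglin co-receptor of endothelium, 9.12-fold higher (3.19 ± 0.17), while the endothelial genes moved as given above.

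Of the 8 other ligands 4 rose and 0 fell in the earlier interval, among them Gdf2 (at least 2.50-fold, log2 2.68 ± 0.31), Gdf10 (1.90 ± 0.35) and Bmp10 (1.34 ± 0.45, with mean signals of 27.8 at E16.5 and 1.14 at E14.5, both below background, so that no fold is given). Of the 13 modulators 4 rose and 3 fell, with Crim1 at 2.90 ± 0.51, Fst at −2.22 ± 0.17 and Twsg1 also lower (adjusted p = 8.62e-07), each with another probeset called the other way. Of the Smads and regulators 4 rose and 4 fell, with Smad1 at −2.49 ± 0.15 and Ski at −1.27 ± 0.13, again with a probeset called the other way, and Smurf2, a ubiquitin ligase of Smads, at 1.99 ± 0.15 on 3 of 3 probesets. Of the targets 5 rose and 3 fell, with Foxn1 at least 4.85-fold higher, Atoh8 at least 2.46-fold higher and Dlx2 at least 2.13-fold lower at E16.5. Tcf3 rose by 4.37 ± 0.18 on 3 of 3 probesets, with means of 2077 at E16.5 and 85.7 at E14.5 (adjusted p = 3.17e-08), and Tcf4 had −1.50 ± 0.21 with 3 probesets called lower and 2 higher.

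Over the whole span, E18.5 against E14.5, 25 of the 54 rose and 10 fell (64.8% called, against 61% of all genes, 41.6% as rises and 19.4% as falls). With the mean of all probesets 34 rose and 1 fell, and the share of all genes called that way was not counted. Msx2 was at least 8.76-fold higher, Msx1 at least 4.96-fold and Foxn1 at least 3.50-fold. Bmp6 was at least 2.67-fold higher and Gdf10 4.69-fold, and Sost, a Wnt and BMP modulator, at least 1.91-fold. Acvr2a had −3.38 ± 0.24 with its other probeset called the other way. For the second change against the first, 15 of the 54 were higher and 15 lower (55.6% called, against 45.1% of all genes, 17.6% higher and 27.5% lower). With the mean of all probesets 4 were higher and 19 lower, again with no share of all genes counted. Chrdl1 (3.70 ± 0.44), Dlx2 (4.04 ± 0.63) and Tcf3 (−5.12 ± 0.29) are named by size within their lists.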

How the data were processed

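Gene expression was measured in 8 samples of mouse dorsal skin. The deposited values are linear signal intensities, 1 per probeset and array. The submitters' processing notes name Affymetrix Expression Console 1.1 and PLIER 2.0 without saying what each did. Background correction and normalization between arrays are steps not given in the sources used here. Per the labels' protocols the target was sense DNA made from random hexamers, a protocol for whole-transcript arrays, while the array is a 3′ expression array.

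Of 45101 probesets, 34958 had 1 gene symbol, 932 several and 9211 none, and 64 were controls; 34945 were tested, covering 18193 genes. limma 3.58.1 (R 4.3.3) fitted 1 mean per stage to log2(signal + 16) over all 8 arrays, with eBayes and a variance trend, and adjusted p-values over all probesets. A signal at or below background gives a fold as "at least". The fit was tested on simulated data. A gene was read by its brightest probeset, on average over the arrays.

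The members, gene lists and tests were chosen with earlier results of these data known. Named were all members, up to 3 called genes per list and contrast with the largest difference, and 2 nearest profiles for members whose stage means span 1 log2 unit above background. The choices varied were the pseudocount (1 and 64), quantile normalization, median centring, a filter on dim probesets, other variance settings, array weights, 1 probeset per gene, only the arrays compared and each array left out. The mean of the probesets of Bmp7, Bmpr1a and Id2 was added after the data were seen. Over all probesets, r between arrays was 0.957 within E14.5, 0.984 to 0.986 within E16.5, and 0.955 to 0.961 within E18.5, and none was counted as a duplicate. Their number limits the precision. Protein sequences were not used here.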

Additional observations from a re-analysis of the deposited data

Results flagged for a closer look

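For 11 probesets the change between E16.5 and E18.5 differed from the change between E14.5 and E16.5 by limma's test of that difference, with n = 2, 3 and 3 arrays. Every value includes the E14.5 arrays, where stage cannot be told apart from whatever else set these arrays apart. The second minus the first log2 change was −3.74 for Smad6, −2.09 for Id1, −2.05 for Id3 and −2.91 for Nog (adjusted p = 2.87e-05, 3.58e-05, 0.000145 and 0.0175). Taking signals at or below background anywhere from 0 to background, the Nog value lay between −4.19 and −1.34. The 3 Bmp7 probesets gave −0.91 (1435479_at), −2.96 (1418910_at) and −4.54 (1432410_a_at), and the last lay between −5.19 and −3.27 with its E14.5 signals anywhere from 0 to background. The Bmpr1a probesets 1425492_at and 1425493_at gave 1.16 and 2.18. The Id2 probesets gave 3.39 (1435176_a_at) and −2.13 (1422537_a_at), opposite signs for the same gene. The Bmp7 1435479_at value lost its call under quantile normalization (−0.30, adjusted p = 0.346), under median centring (−0.073, adjusted p = 0.836) and on leaving out E16.5 replicate 2 or 3, and the Nog value under median centring and without E14.5 replicate 2 or E16.5 replicate 1 or 2.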

How the results depend on the processing

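Between E16.5 and E18.5 the count of called probesets was 4, and 2 without a variance trend (Bmp4 and Id2 1435176_a_at). It was 2 to 4 with each array left out, and 3 or 4 in the other settings. It was 2 without E16.5 replicate 1, 2 or 3. Calls over all probesets fell too, from 10.7% to 4.76%, 4.47% and 3.46% without E16.5 replicate 1, 2 and 3, and to 6.97% without a variance trend. The other counts of called probesets ranged, with each array left out, from 13 to 16 for E16.5 against E14.5, were 14 each time for E18.5 against E14.5, and ranged from 9 to 13 for the second change against the first. Over all probesets the shares called were 51.7% to 59.3%, 53.8% to 59% and 36% to 45.9% for these 3 comparisons. The 14 were not always the same probesets. Bmpr1a 1425491_at lost its E18.5 against E14.5 call, while Grem1 gained one without E14.5 replicate 2 (adjusted p = 0.183 for the loss and 0.00952 for the gain) and Nog gained one without E18.5 replicate 1 (adjusted p = 0.0513 and 0.00227). The direction of some values turned. Under quantile normalization Bmp7 1418910_at and Bmpr1a 1425491_at gave 0.047 and 0.0072 for E18.5 against E16.5, Grem1 −0.29 for E18.5 against E14.5, and Bmp4 0.87 for the second change against the first. Under median centring Bmp7 1435479_at gave −0.088, −0.015 and −0.10 for E18.5 against E16.5, E16.5 against E14.5 and the whole span, Bmpr1a 1445413_at −0.39 for E16.5 against E14.5, Grem1 −0.42 for E18.5 against E14.5, and Bmp4 0.67 for the second change against the first. With the mean of all probesets Bmpr1a gave −0.076 for E18.5 against E16.5, and Id2 0.39 and 0.85 (adjusted p = 0.0626 and 0.00105) for E16.5 and E18.5 against E14.5. Leaving out an array, the E18.5 against E16.5 values that turned ranged from −0.013 to 0.056 (Bmp7 1435479_at), −0.068 to 0.029 (Bmp7 1418910_at), −0.053 to 0.30 (Bmpr1a 1425493_at) and −0.14 to 0.081 (Bmpr1a 1425491_at). For E16.5 against E14.5 Grem1 ranged from −1.08 to 0.67, and for E18.5 against E14.5 Bmp2 ranged from −0.42 to 0.17, Grem1 from −0.22 to 1.52, Bmpr1a 1451729_at from −0.28 to 0.16 and 1445413_at from −0.43 to 0.26. The cause was not tested in any of these. No paired analysis was possible because the numbers in the sample titles, whose meaning the labels do not give, share fewer than 2 values between any stages, and the replicate numbers used here follow accession order. Signals near background limit what can be said of Nog, Grem1 and the dim probesets.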

Other observations

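All 4 measured adipocyte genes rose between E16.5 and E18.5, where 6.69% of all genes rose and 5.21% fell. Their summed signal was 18813 to 27087 at E18.5 and 5163 to 5899 at E16.5, with Cidec at background on all E16.5 arrays. Of the 6 skeletal muscle genes 1 rose and 1 fell, with sums of 65550.0 to 101407 at E18.5 and 52828 to 58691 at E16.5. The 2 nerve and Schwann cell genes with a probeset, Sox10 and S100b, gave sums of 265 to 582 at E18.5 and 417 to 519 at E16.5, with neither gene called by limma (0 at an unadjusted p under 0.05) and S100b at background on all E18.5 arrays.

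Among the E18.5 arrays, Bmp2 was highest on replicate 2 (1413) and lowest on replicate 1 (611), while the hair matrix sum was highest on replicate 1 (10019.6) and the papilla sum on replicate 3 (6762). Id1 and Id3 were highest on replicate 1, as was Smad6, while Nog was lowest there. These are single arrays and were not tested.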
